A study of Xenopus laevis with 20 samples.

Results

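Dkk1 by itself was compared with no injection in animal caps of Xenopus laevis, on 8 of the 20 arrays of the series. The 4 arrays of caps from Dkk1-injected embryos and the 4 arrays of caps from uninjected embryos were taken by their titles, 1 of which misspells the word uninjected. The study looked for early targets of Gata4 and Gata5, with Dkk1 added to Gata4 to find those of the mesoderm. The injected embryos received 10 ng of Dkk1 mRNA before first cleavage. In both groups the caps were excised at stage 9 and held for 2.5 hours with cycloheximide and dexamethasone, so both drugs are on each side of the comparison. The other 12 arrays, used here where stated, hold caps injected with Gata4-GR, with Gata5-GR, or with Gata4-GR and Dkk1 together, 4 arrays each, at 10 ng of each mRNA. GR marks a fusion to the glucocorticoid receptor, which dexamethasone makes active. The uninjected embryos had no control RNA, so a difference from them also holds any effect of being injected.

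Dickkopf-1 (Dkk1) is a secreted antagonist of canonical Wnt signalling. It binds the LRP co-receptors at the cell surface, so that a Wnt ligand can no longer stabilise β-catenin and switch on TCF target genes. In the frog embryo, β-catenin on the dorsal side first sets up the organizer, and Wnt ligands later pattern the mesoderm and the neural plate; in Xenopus, Dkk1 is itself known as a head inducer made by the anterior endomesoderm. The animal cap is the ectoderm at the roof of the blastula, which forms epidermis when left alone. Cycloheximide, an inhibitor of protein synthesis, was added only after the caps were cut. Dkk1 protein made between injection and that time could therefore act, unlike a fusion that waits for dexamethasone.

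No row of the table is named as a gene here, because the identifiers beside the signals did not behave as the identifiers of those signals. Rows 1 to 9 are listed as the bacterial spike-in RNAs bioB, bioC, bioD and cre, which are supplied in rising amounts, and their median signals rose in that order, from 126 in the first 3 rows through 377 and 941 to 5541 in the last 2. The second probe design of the same spike-ins is listed in rows 31 to 39, where the same blocks read 7496, 91.4, 124 and 17.8. The rising order stood 6 rows higher in the table, in rows 25 to 33, with 167, 572, 1944 and 8069. The signals of these control rows thus ran in another order than the listed names. Across genes, the median log2 signals of 1017 listed L and S copies, the gene pairs left by the genome duplication of this species, had a correlation of -0.014. The 93 rows listed as ribosomal proteins, whose transcripts are abundant in most cells, had a median percentile of 42.6 among all rows. The row for Dkk1, and the marker genes of ectoderm, mesoderm and endoderm, could not be located for the same reason. The tissue, the injected RNA and every Wnt target were therefore not checked, and each row is called by its position in the table, counting from 1.

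A row's value is a deposited intensity on a linear scale. For every test 16 was added, the log2 was taken and the arrays were quantile normalized, and these values are called log2 levels. A difference of log2 levels understates the change of a dim row, and 26.8% of the 15491 tested rows had a median signal under 16 in the 8 arrays. The array medians of the deposited signals were 72.6 to 100.4 in the uninjected group and 59.2 to 74.9 in the Dkk1 group. This difference did not pass an exact two-sided permutation test that takes no account of the replicate numbers (p = 0.0571, where 4 arrays against 4 can give 0.0286 at the lowest). The Dkk1 median was the lower one in 4 of 4 same-numbered pairs, and so was that of Gata4-GR with Dkk1 beside Gata4-GR, at 62.9 to 83.7 against 73.4 or more. The part of these medians in the results was not tested. Without normalization between arrays it would have shifted the median row by -0.30 on the log2 scale. Within the 8 arrays 72.1% of the variance lay between replicate numbers, 7.91% between the groups and 20% in the rest. Per degree of freedom these shares were 24%, 7.91% and 6.65%. The replicate number was fitted as a block. Uninjected replicate 3 averaged 244 over spike-in rows 4 to 9, against 1671 to 2908 on each of the other arrays. Over rows 28 to 33, in the second rising block, it was not low, at 4094 against 2803 to 4452. For each row called between Dkk1 and uninjected caps, the result is also given without this array.

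Few rows passed the test. Of 15491 rows, 3 were called higher in Dkk1 caps than in uninjected caps, 0.0194% of all rows, and 0 were called lower (limma, adjusted p under 0.05). An unadjusted p under 0.05 was reached by 757 rows, 361 higher and 396 lower, where 774.55 would be expected if no row changed. The 3 called rows, 15572, 5066 and 2234, were the only ones with a log2 difference above 1. Over all rows the middle 90% of differences lay between -0.24 and 0.23. For 15397 rows, 99.39% of those tested, the 95% interval of the difference, not adjusted for the number of rows, lay within a 2-fold change in either direction on the log2(signal + 16) scale. A dim row can change by more than this in its signal without leaving that range. In a pool of cells, fewer cells of a type and less RNA per cell cannot be told apart.

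**Figure D1:**
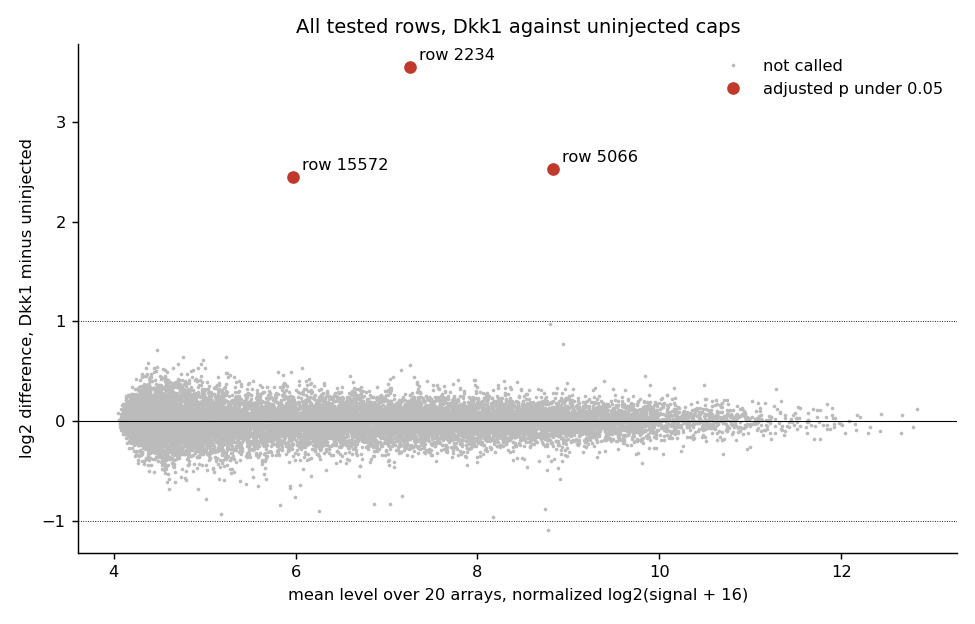
Log2 difference of Dkk1 and uninjected caps against the mean log2 level over 20 arrays, for all 15491 tested rows. The 3 called rows stand above the dotted line at a log2 difference of 1, and the remaining rows lie around 0, with 1 uncalled row below -1.

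Row 15572 gave the most regular rise. Its signals were 12.6, 16.1, 5.5 and 17.1 in uninjected replicates 1 to 4, and 97.2, 142.9, 89.6 and 132.2 in Dkk1 replicates 1 to 4. The lowest Dkk1 array was above the highest uninjected one. Its log2 level rose from 4.78 ± 0.28 to 7.24 ± 0.35 (SD, n = 4), a difference of 2.45 ± 0.18 (SE; adjusted p = 1.73e-06 in limma). The 4 same-numbered pairs differed by 2.42, 2.40, 2.36 and 2.64, so the pairs spread over less than 0.3. Leaving out any 1 of the 8 arrays kept the call, with differences of 2.34 to 2.52, and without uninjected replicate 3 it was 2.42 (adjusted p = 3.18e-05).

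The deposited signals of this row were also above the uninjected range on every other injected array, to different heights. Its signals were 18.0, 18.1, 22.7 and 35.9 with Gata4-GR and 28.4, 68.8, 63.4 and 130.7 with Gata5-GR. With Gata4-GR and Dkk1 together they were 66.3, 60.7, 31.6 and 88.8. The mean log2 levels therefore ran from 4.78 in uninjected caps through 5.21 ± 0.18 with Gata4-GR, 6.30 ± 0.38 with Gata4-GR and Dkk1 and 6.33 ± 0.61 with Gata5-GR to 7.24 with Dkk1. Gata5-GR and Gata4-GR with Dkk1, neighbours in that order, differed by less than their spread. Against the mean of the Gata4-GR and Gata5-GR groups, in which every array was injected, the Dkk1 group was higher by 1.46 ± 0.15 (SE; adjusted p = 0.000153 in limma). This mean joins 2 unlike groups, and the Gata5-GR level lay closer to that of Dkk1. Gata5-GR replicate 4, at 130.7, was within the Dkk1 range of 89.6 to 142.9. What an injection without Dkk1 or Gata would do to this row was not measured.

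Row 2234 had the largest difference. It read 49.1, 25.6, 18.8 and 135.2 in the uninjected arrays, and 458.5, 633.8, 645.4 and 483.7 in the Dkk1 arrays. The Dkk1 arrays agreed closely, at a log2 level of 9.37 ± 0.10 (SD, n = 4), while the uninjected arrays spread widely, at 5.82 ± 0.79. The log2 difference was 3.55 ± 0.49 (SE; adjusted p = 0.00783 in limma), and each of the 4 pairs went up. The size of the difference was stable but its call was not. Leaving out Dkk1 replicate 1, 2 or 4, or uninjected replicate 2 or 3, ended the call, with adjusted p values of 0.0504 to 0.0731 and differences of 3.08 to 3.55. Without uninjected replicate 3 the difference was 3.08 (adjusted p = 0.0504, not called). Without uninjected replicate 4, the highest of its group, it was 4.04 (adjusted p = 0.00167).

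The same row was low in most arrays that had no Dkk1 RNA. It read 26.5, 22.4, 54.3 and 28 with Gata4-GR. With Gata5-GR it read 23.7, 83.8, 373.6 and 22.7, so replicate 3 of that group lay near the Dkk1 range. With Gata4-GR and Dkk1 together it read 466.2, 556.9, 481.7 and 612.3. The 8 arrays with Dkk1 RNA thus all lay above the 12 arrays without it. Whether this row reads the injected RNA or a transcript of the embryo was not tested.

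Row 5066 rose from near the bottom of the scale. Its signals were 2.3, 1.3, 2.7 and 1.8 in the uninjected arrays and 30.8, 91.4, 45.0 and 198 in the Dkk1 arrays. The groups did not overlap, and the Dkk1 arrays differed among themselves more than those of any other called row, with a log2 level of 6.69 ± 1.04 (SD, n = 4). The log2 difference was 2.53 ± 0.30 (SE; adjusted p = 0.00156 in limma), and the pairs differed by 1.65, 2.77, 1.76 and 3.96. The uninjected signals were small beside the added 16, and the value depended on it: with 1 added the difference was 4.91, and with 64 added it was 1.26 and not called (adjusted p = 0.635). Without the replicate block the row was not called either (adjusted p = 0.174), which left 2 called rows, nor with only the 8 compared arrays fitted (adjusted p = 0.494). Without uninjected replicate 3 the difference was 2.75 (adjusted p = 0.00151).

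In the groups given a Gata RNA the same row was far brighter than with Dkk1. It read 1709.8, 2800.2, 1863.9 and 6271.5 with Gata4-GR, 1223.2, 4912.1, 1897.5 and 5420.5 with Gata5-GR, and 1430.2, 1416.9, 868.4 and 2124 with Gata4-GR and Dkk1. Dkk1 caps lay below the mean of the Gata4-GR and Gata5-GR caps by a log2 difference of -4.68 ± 0.26 (SE; adjusted p = 3.33e-08 in limma). The Dkk1 arrays thus stood between the uninjected arrays and all arrays with a Gata RNA, with no overlap on either side. Among the Dkk1 arrays replicate 4 was highest, and replicate 4 was also highest in each group with a Gata RNA. The whole order, rising over replicates 1, 3, 2 and 4, was the same with Dkk1, with Gata4-GR and with Gata5-GR. With Gata4-GR and Dkk1 together replicate 3 was lowest instead. The reason for the shared order was not tested. Whether this row reads an injected RNA or a transcript of the embryo was not tested either.

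**Figure D2:**
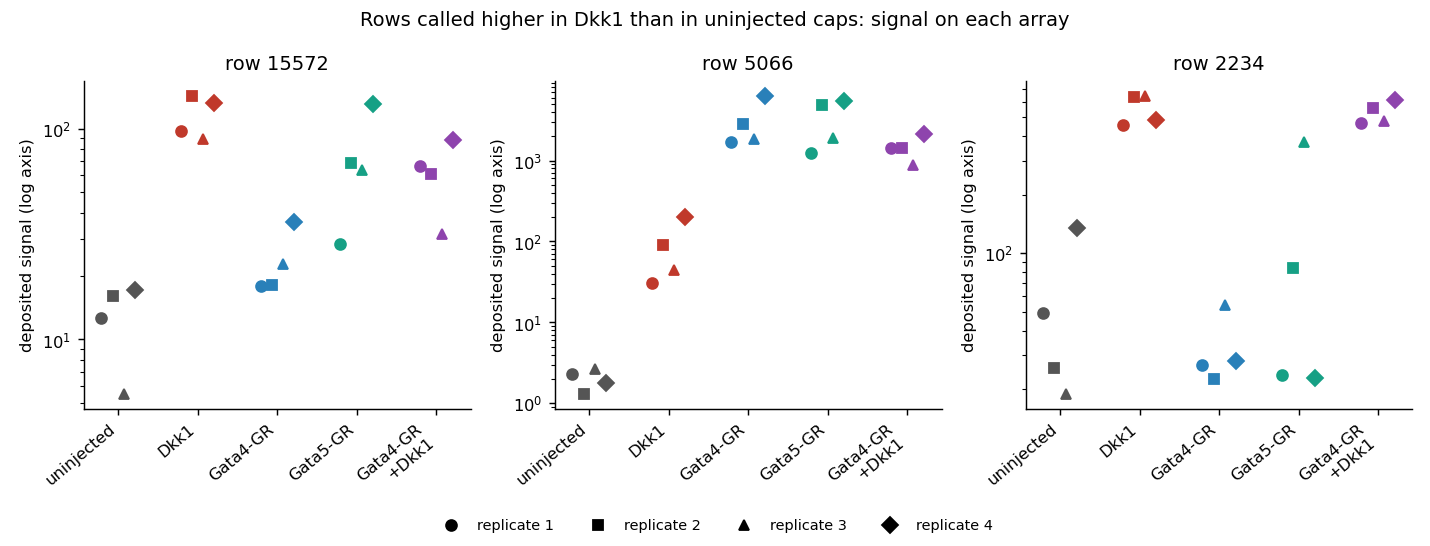
Deposited signal of rows 15572, 5066 and 2234 on each of the 20 arrays, on log axes, with a symbol for each replicate number and a colour for each group. Row 15572 has its highest group mean with Dkk1 and is graded over the injected groups, with an overlap of the Gata5-GR and Dkk1 arrays. Row 5066 is low with Dkk1 and high with a Gata RNA. Row 2234 is high on the 8 arrays with Dkk1 RNA and on Gata5-GR replicate 3, at 373.6.

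The second comparison asked whether Dkk1 had the same differences beside Gata4-GR. It used 8 other arrays, Gata4-GR with Dkk1 against Gata4-GR, so it shared no array with the comparison above, and both sides were injected, although the side with Dkk1 received 10 ng more RNA. A single row, 1 of 15491 or 0.00646%, passed the test upwards and 0 passed it downwards. Row 2234 was this row, at a log2 difference of 3.73 ± 0.49 (SE; adjusted p = 0.0123 in limma), higher in 4 of 4 pairs. Its call was lost when any 1 of the 8 arrays was left out (adjusted p = 0.0523 to 0.112), while its difference stayed between 3.65 and 3.87. In this comparison 1113 rows reached an unadjusted p under 0.05, 481 higher and 632 lower, where 774.55 would be expected if no row changed. Over all rows 0.704% were higher and 0.749% lower without overlap of these groups, and 6.45% were higher and 6.89% lower in 4 of 4 pairs. Row 15572 was higher in 4 of 4 pairs by 1.09 ± 0.18 (SE) and did not pass (adjusted p = 0.0749 in limma). Its deposited signals overlapped, with 35.9 the highest without and 31.6 the lowest with Dkk1, and its normalized levels did not. Row 5066 had a difference of -0.70 ± 0.30 (SE), was lower in 3 of 4 pairs and did not pass (adjusted p = 0.666 in limma).

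The test of the difference between both backgrounds called 1 row. For row 5066 the Dkk1 difference was -0.70 beside Gata4-GR, which by itself was not called, and 2.53 in its absence. The signs of these estimates were opposite. The interaction was -3.23 ± 0.43 (SE; adjusted p = 0.0123 in limma), which is 0.00646% of all rows called lower. The signals without Dkk1 were 1.3 to 2.7 in uninjected arrays and 1709.8 to 6271.5 with Gata4-GR. The part of these unlike starting levels in the interaction was not tested. Without the replicate block this interaction was not called (adjusted p = 0.99). Row 15572 had an interaction of -1.36 ± 0.25 (SE; adjusted p = 0.33 in limma, not called). For row 2234 the interaction was 0.18 with a 95% interval of -1.29 to 1.65, so an equal difference in both backgrounds lay inside the interval and so did a 2-fold inequality in either direction.

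With both comparisons averaged at equal weight, 8 arrays with Dkk1 against 8 without, 2 rows were called higher, 0.0129% of all rows, and 0 lower. Row 15572 had a mean difference of 1.77 ± 0.12 (SE; adjusted p = 1.23e-06 in limma), and row 2234 one of 3.64 ± 0.35 (SE; adjusted p = 6.76e-05 in limma). Leaving out all 5 arrays of any 1 replicate number kept both calls. Across the 15491 rows the differences of both comparisons had a correlation of 0.0845, and of 0.0532 without the 3 called rows. This is a description over rows that share arrays, not a test. An unadjusted p under 0.05 was reached by 999 rows, where 774.55 would be expected if no row changed.

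**Figure D3:**
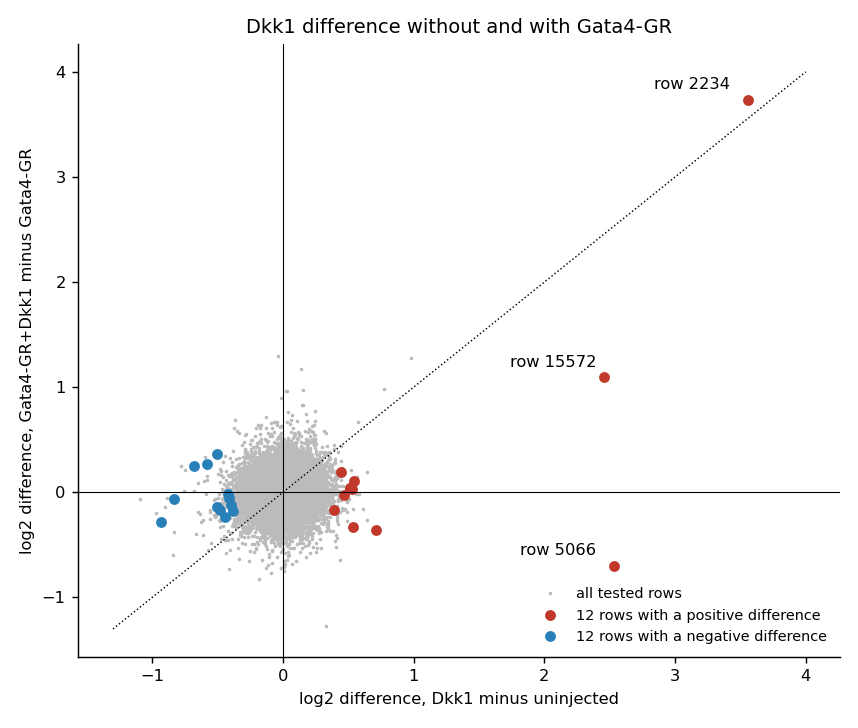
Log2 difference with Dkk1 beside Gata4-GR against that in its absence, for all tested rows, with the 24 rows described in the text in colour and a dotted line of equal differences. Row 2234 lies near the line at 3.55 and 3.73, row 15572 below it at 2.45 and 1.09, and row 5066 far below it at 2.53 and -0.70.

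Beyond the called rows, the rows with the smallest p were described to a total of 12 with a positive and 12 with a negative difference. They were chosen for this difference, so their values are a description. The 9 positive rows that were not called had log2 differences of 0.39 to 0.71 and adjusted p values of 0.593 to 0.759. Most of them were dim, at a median percentile of 16.5 of all rows by mean level. Row 13624, the first of them, read 3.1, 2.3, 2.6 and 11 in uninjected arrays and 13.1, 18.7, 17.4 and 11 in Dkk1 arrays, a difference of 0.71 ± 0.15 (SE). Row 3682 read at most 2.9 in uninjected arrays and at least 8.3 in Dkk1 arrays, a difference of 0.53 ± 0.13 (SE). These signals are near or below the added 16, where a few units of signal make the whole difference. Row 11822 was a brighter example, at 103.0, 103.7, 112.7 and 123.9 without and 89.8, 164.1, 134.8 and 117.1 with Dkk1. Its deposited signals overlapped, and its normalized levels did not, at 6.84 ± 0.14 and 7.35 ± 0.24 (SD, n = 4).

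The 12 negative rows had log2 differences of -0.94 to -0.38, and none was called (limma adjusted p = 0.593 to 0.759). Row 14670 stood first. It read 213.6, 131.8, 166.4 and 178.3 in the uninjected arrays and 81.9, 52.1, 71.1 and 59.5 in the Dkk1 arrays, and every Dkk1 array lay below every uninjected one. Its difference was -0.84 ± 0.18 (SE; adjusted p = 0.593 in limma). Whether it was called depended on the fit. Gata4-GR replicate 1 had the lowest weight of the 20 arrays, at 0.121, and without it row 14670 was called lower by -0.83 (adjusted p = 0.00844); with array weights it was called too, at -0.82 (adjusted p = 0.0277). With no normalization between arrays it was called as well, at -1.19 (adjusted p = 0.00546 in limma). In that setting the median row was lower with Dkk1 too, so this value also holds the difference between whole arrays. In the injected groups without Dkk1 the row read 84.1 to 184.5 with Gata4-GR and 138.9 to 158.5 with Gata5-GR. Beside Gata4-GR the Dkk1 difference was -0.06 ± 0.18 (SE), with same-numbered pairs at 0.725, -0.633, 0.152 and -0.482. The first of these pairs holds Gata4-GR replicate 1, which read 84.1.

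Row 3201 had the most negative of these differences, -0.94 ± 0.22 (SE). It read 58.6, 25.4, 30.1 and 146.9 in uninjected arrays and 11.6, 12.4, 14.7 and 23.2 in Dkk1 arrays. Every other injected group was low as well: the 12 remaining arrays read 3.7 to 30.1, so the highest values were those of uninjected replicates 1 and 4. Row 9280 was the brightest of the 12, at percentile 85.4. It read 559.6, 500.2, 555.2 and 642.3 without and 258.7, 394.1, 371.1 and 266.3 with Dkk1, a difference of -0.40 ± 0.09 (SE). Row 10139 read 127.9, 96.6, 124.7 and 156.1 without and 54.6, 64.8, 81.6 and 75.0 with Dkk1, lower in 4 of 4 pairs, with a difference of -0.38 ± 0.10 (SE; adjusted p = 0.759, not called). The deposited signals of these negative rows also hold the lower medians of the Dkk1 arrays as a whole. The fitted differences come from normalized levels and are smaller than the listed signals make them look.

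In 15 of the 24 rows the Dkk1 and uninjected groups did not overlap, 8 of the positive and 7 of the negative rows. Over all rows 0.742% were without overlap and higher, and 0.833% without overlap and lower. All 4 pairs went the same way in 11 of the 12 rows of each direction, against 7.00% of all rows upwards and 7.40% downwards. Nothing is read from these counts, since the same difference chose the rows. The arrays with Gata4-GR, with and without Dkk1, had no part in the difference that chose them, though they entered the spread and the block of the same fit. Beside Gata4-GR, 5 of the 9 uncalled positive rows and 9 of the 12 negative rows differed in the same direction, where 49.8% of all rows were above 0. Their median differences there were 0.03 and -0.09, against 0.51 and -0.50 in the comparison that chose them. In the wider sets the medians beside Gata4-GR were again near 0, at 0.01 and -0.04. Of the 358 uncalled rows that were higher at an unadjusted p under 0.05, 52.5% were also higher beside Gata4-GR. This was near the 51.6% of all rows with a positive difference. Of the 396 lower rows 60.6% were also lower, above the 52.1% of all rows with a negative difference. These shares are a description over rows that share arrays, not a test. In both comparisons the array with Dkk1 had the lower median signal in each same-numbered pair. The part of this in the shares was not tested.

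**Figure D4:**
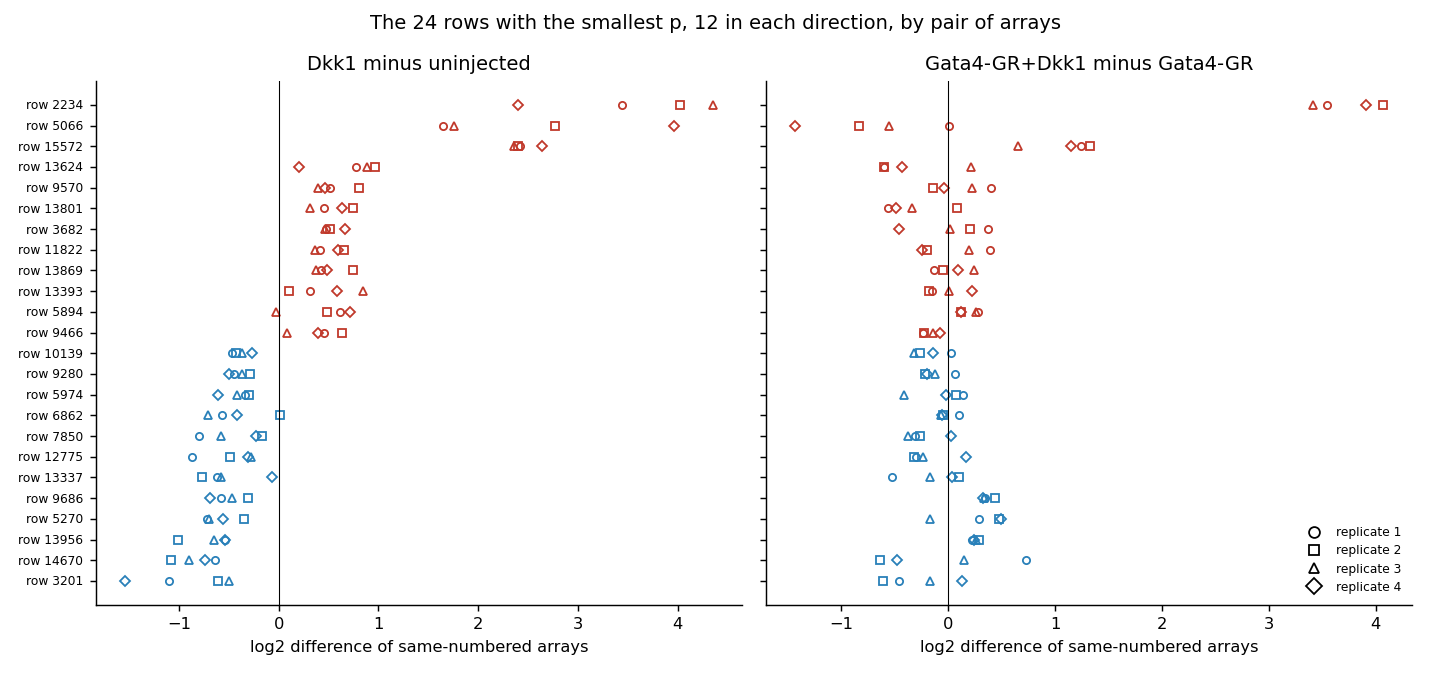
Log2 difference of each same-numbered pair of arrays for the 24 described rows, red for rows with a positive and blue for rows with a negative mean difference, without Gata4-GR on the left and beside it on the right. The left panel is the comparison that chose the rows; on the right all 4 pairs lie above 0 in rows 2234, 15572, 5894, 9686 and 13956, of which rows 9686 and 13956 had all 4 pairs below 0 on the left.

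A last comparison set Dkk1 caps against the mean of Gata4-GR and Gata5-GR caps, so that every array had been injected with 1 RNA. A Gata response stands in it with its sign turned. In it 4 rows were higher with Dkk1, 0.0258% of all rows, and 10 were lower, 0.0646% (limma, adjusted p under 0.05). Without the replicate block 6 rows were called, 2 higher and 4 lower, and the split also moved with the scaling, to 5 higher and 3 lower with median centring and to 4 higher and 32 lower with none. Without Gata4-GR replicate 1 it was 5 higher and 12 lower. The higher rows were 15572, 2234, 15271 and 8170, and rows 15271 and 8170 were not called between Dkk1 and uninjected caps. Without the replicate block, row 15271 (adjusted p = 0.0849) and row 8170 (0.701) lost their call, as did rows 4612 (0.0682) and 2912 (0.508) among the lower ones. Of 13 alternatives, row 8170 lost its call in 7, row 2912 in 6, row 4612 in 5 and row 15271 in 4. Row 15271 read 51.0, 45.9, 44.2 and 43.4 with Dkk1 and 96.9, 45.7, 68.6 and 73.2 uninjected. With Gata4-GR it read 21.4, 24.8, 47.7 and 35.4, and with Gata5-GR 31.3, 21.2, 31.2 and 29.2. Its log2 levels in Dkk1 and uninjected caps, 6.14 ± 0.18 and 6.27 ± 0.23, overlapped, and both lay above 5.47 ± 0.21 with Gata4-GR and 5.48 ± 0.21 with Gata5-GR (SD, n = 4).

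Apart from row 5066, the 9 rows lower with Dkk1 than with a Gata RNA were not told apart from uninjected caps in Dkk1 caps. Their log2 differences between Dkk1 and uninjected caps were -0.51 to 0.11, all 9 overlapped between these groups, and none was called (limma adjusted p = 0.987 to 0.998). Nearly all rows did the same. Over all rows 0.742% were higher and 0.833% lower without overlap, and 0.0194% were called higher and 0% lower. Nothing particular to the 9 rows is read from the overlap or the missing calls. Row 11897 is an example: it read 17.7, 15.8, 17.5 and 28.9 uninjected and 14.8, 15.9, 24.6 and 17.4 with Dkk1, but 45.6 to 117.4 with Gata4-GR and 50.3 to 75.8 with Gata5-GR. Its Dkk1 level was below the Gata groups by -1.11 ± 0.10 (SE; adjusted p = 4.53e-05 in limma), and it differed from uninjected caps by 0.11 with a 95% interval of -0.14 to 0.36. Row 821 read at most 6.5 in either of these groups, and 18.9 to 37.1 with Gata5-GR. With Gata4-GR it read 5.2, 18.5, 9.0 and 29.1, the lowest of which lay within the uninjected range. Row 4612 read 1.0 to 8.7 with Dkk1 and 13.3 or more in every array with a Gata RNA.

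**Figure D5:**
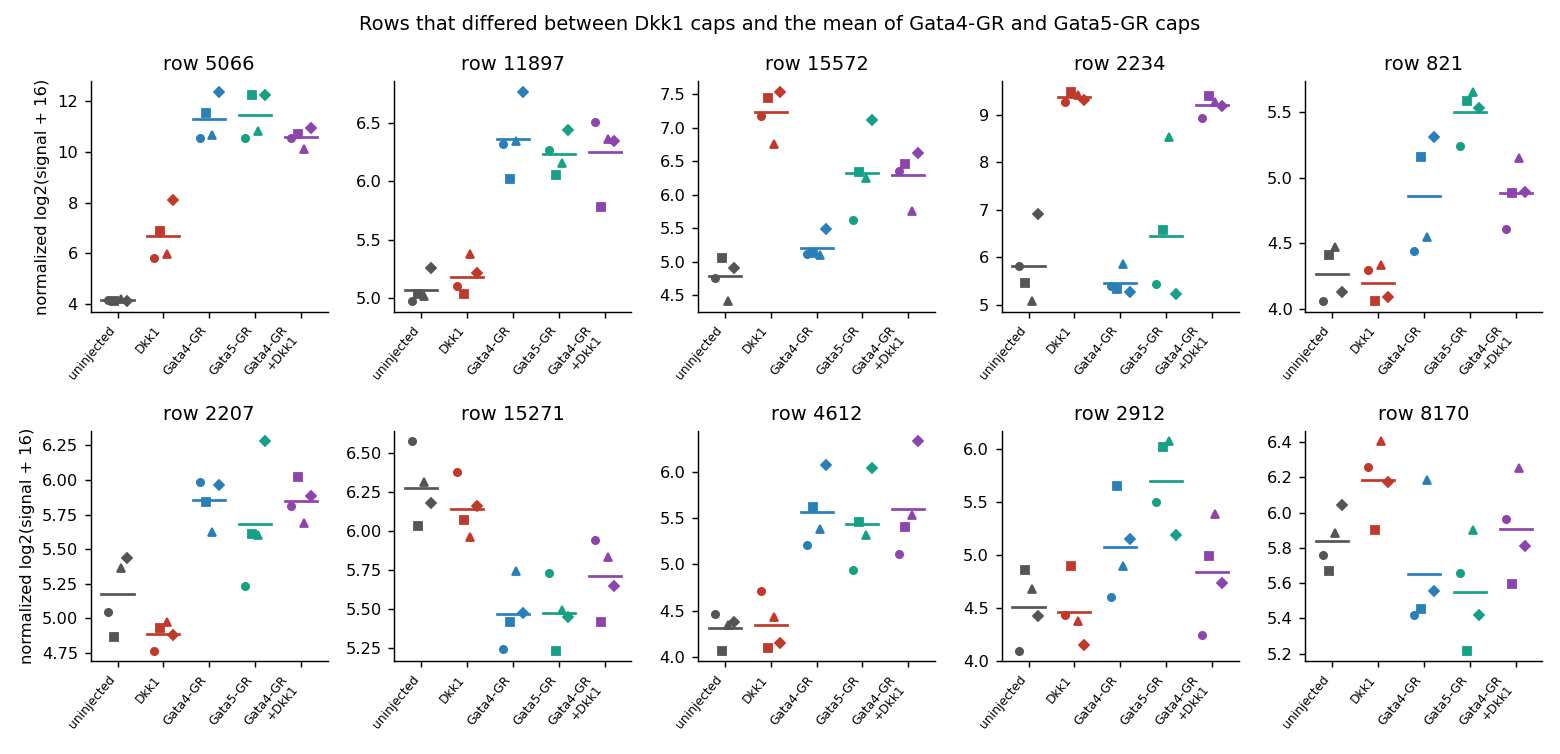
Normalized log2(signal + 16) levels on each array, with the group mean as a bar, for the 10 rows with the smallest adjusted p between Dkk1 caps and the mean of Gata4-GR and Gata5-GR caps. In rows 11897, 821, 2207, 4612 and 2912 the Dkk1 and uninjected arrays overlap at a low level, in rows 15271 and 8170 they overlap at a higher one, and rows 5066, 15572 and 2234 part them.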

How the data were processed

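The authors deposited 1 intensity per probe set and array, in linear units judging by its range of 0.1 to 10929, already summarised over probes by a program that the sources used here do not name. Biotin-labelled cRNA was hybridised to Affymetrix arrays, per the labels' protocols. With 16 added, log2 values of all 15611 rows were quantile normalized. The 120 rows with control identifiers were then dropped, which rests on the listed identifiers. Each of the 15491 others, dim ones included, entered the tests. To all 20 arrays, limma 3.58.1 in R 4.3.3 fitted 5 group means and the replicate number as a block (12 residual degrees of freedom). Tests were eBayes moderated and two-sided, with Benjamini-Hochberg adjustment over all rows in each of 5 comparisons. The code of the fit was tried on simulated data, with independent noise drawn from the same model and added changes. That simulation held no floor of dim signals and no correlation between rows, so it bears on the code and not on the calls. Differences and intervals come from this fit, and SDs from normalized levels.

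Groups and replicate numbers came from the titles. The block was fitted because the rule that defines the comparison names it, not because of the correlations that follow. Same-numbered arrays deviated together from their group means. The correlations of the 4 pairs were 0.447 to 0.658 for Dkk1 with uninjected, and 0.111 to 0.633 for Gata4-GR+Dkk1 with Gata4-GR. Each was above the bound of 0.1, the lowest only narrowly, and the numbers were taken to pair the arrays. The labels do not state whether each replicate had its own embryos, and the p-values cover only how these arrays vary, possibly for technical reasons. The number of arrays limits the precision.

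Rows were described by this rule: all called rows, further rows by unadjusted p up to 12 in each direction, and up to 10 called rows of each other comparison. Rows 205, 8638, 8639, 6999, 2427 and 2308 were chosen after their values were seen, as were the identifier checks. The comparison, the rule and the lists were chosen with earlier results of these data known. The lists of Wnt genes and cell type markers need gene names and were not used. Alternatives covered the block, the pseudocount, the normalization, dim rows, the spread and the arrays left out.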

Additional observations from a re-analysis of the deposited data

Results flagged for a closer look

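The Dkk1 difference of row 5066 differed with and without Gata4-GR by the interaction of -3.23. In 3 rows every pair went one way without Gata4-GR and the other way beside it, and the fit did not call the difference (limma adjusted p = 0.894 for row 9466, 0.33 for row 9686 and 0.894 for row 13956). The interactions were -0.56 in row 9466, 0.87 in row 9686 and 0.93 in row 13956. These rows had been chosen for the first of both differences. Beside Gata4-GR 6.45% of all rows were higher and 6.89% lower in 4 of 4 pairs, and nothing is read from the count of 3.

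An array stood apart from the rest of its group in 8 of 165 groups of 4 arrays, where chance gives about 8.25. In row 13624 uninjected replicate 4 read 11 where the others read 2.3 to 3.1, and Gata5-GR replicate 2 read 10.3 against 1.4 to 2.5. In row 9466 uninjected replicate 4 read 17.3 against 11.6 to 13.2. In row 15572 Gata4-GR replicate 4 read 35.9 against 18.0 to 22.7. In row 13869 Gata4-GR replicate 1 read 3.8 against 8.5 to 11.4, and in row 6862 Gata4-GR replicate 3 read 7.9 against 1.5 to 1.9. In row 3201 the second array with Gata4-GR and Dkk1 read 3.7 against 16.4 to 19.1. The median signal of Gata5-GR replicate 1 was 64.7, and those of its group were otherwise 82.1 to 84.3.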

How the results depend on the processing

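No difference that was recomputed changed sign: of 868 values over 31 rows, 806 kept their side of the threshold, 53 lost a call and 9 gained one. Rows chosen after their values were seen were not recomputed. For Dkk1 against uninjected, row 15572 was called in every alternative that tested it; with rows above the 50th percentile it was not tested. The count was 8 with median centring, which added the dim rows 13801, 10546, 11117, 3682 and 13624, and 1 to 4 when arrays were left out; the 1 was row 15572, without replicate 2 of all groups. Row 2234 lost its call with a pseudocount of 1 (adjusted p = 0.179), with a trended and robust spread (0.0693), and without all arrays of number 1 (0.309) or 2 (0.65). Row 5066 lost it without number 2 (0.151). For Dkk1 beside Gata4-GR the count was 2 with median centring, with scaling to a common trimmed mean and at an adjusted p under 0.1, adding row 15572 each time. It was 0 with a pseudocount of 1, with a trended and robust spread, at an adjusted p under 0.01, and without any 1 of the 8 arrays. The average of both gave 83 rows with median centring and 5844 with no normalization, 5833 of them lower, as the median row then shifted by -0.26; with rows above the 50th percentile it gave 1, since row 15572 was not tested. The interaction gave 0 without the replicate block, with a pseudocount of 64, with a trended and robust spread and at an adjusted p under 0.01. Dkk1 against the Gata groups gave 6 without the block, 8 with a pseudocount of 1, 6 with 64, 8 with median centring (5 higher, 3 lower), 36 with no normalization (4 higher, 32 lower), 7 with trimmed-mean scaling, 2 with rows above the 50th percentile and 5 at an adjusted p under 0.01. Without the block no other count or call of the first 3 comparisons changed beyond row 5066. Otherwise the cause was not tested.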

Other observations

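Row 205 was the only row with a log2 difference below -1 between Dkk1 and uninjected caps, at -1.09 ± 0.30 (SE; adjusted p = 0.759 in limma). It read 1122.9, 329.6, 635 and 2049.9 in uninjected arrays and 240.9, 325.7, 311.8 and 276 in Dkk1 arrays. The uninjected arrays carried nearly all of the spread. The deposited signals did not overlap, though only narrowly, with 329.6 the lowest uninjected and 325.7 the highest Dkk1 signal. These signals also hold the difference between whole arrays, with medians of 59.2 to 74.9 with Dkk1 and 72.6 to 100.4 without. Whether its normalized levels overlapped is not given here. On normalized levels 0.833% of all rows were lower without overlap. Nothing is read from the missing overlap of this row. All 12 other injected arrays read 237.5 to 678.6. Beside Gata4-GR its Dkk1 difference was -0.06 ± 0.30 (SE).

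Of 15491 tested rows, 66 had a difference beyond 0.5 on the log2 scale without Gata4-GR and 150 beside it. The comparison beside it holds Gata4-GR replicate 1, the array with the lowest weight, at 0.121. The part of that array in the 150 was not tested. These Dkk1 comparisons share no array. In 7 rows, 5 higher and 2 lower, both differences passed that size in the same direction, and in 1 row in opposite directions. Besides rows 2234 and 15572, the 7 rows were 8639, 8638, 2427, 6999 and 2308, none of them called in the average of both (limma adjusted p = 0.569 to 0.766). They were chosen after their values were seen. The SE of each difference was 0.455 in row 8638 and 0.46 in row 6999, close to that size. Row 6999 read 614.3 in uninjected replicate 4 and 16.3 to 65.4 in the other uninjected arrays. Row 2308 read 129.6 in Gata4-GR replicate 1 and 9.9 to 12.6 in the other Gata4-GR arrays. Rows 8638 and 8639 are neighbours in the table and read alike, with a correlation of 0.956 over the 20 arrays. Row 8639 read 1227, 806.3, 422.5 and 199.4 in uninjected arrays and 920, 751, 899.2 and 746.5 with Dkk1. With Gata4-GR it read 408.4, 99.6, 588.9 and 103.2, and with Gata4-GR and Dkk1 797.9, 382.3, 340.2 and 439.2. Its Dkk1 differences were 0.98 and 1.27, each ± 0.41 (SE), and in both comparisons the arrays without Dkk1 held the lowest values. The deposited signals did not rise in every pair. Uninjected replicates 1 and 2, at 1227 and 806.3, read above their Dkk1 pairs, at 920 and 751. Gata4-GR replicate 3, at 588.9, read above its pair with Dkk1, at 340.2.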
